A study of Glycine max with 6 samples.

Results

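Regions called in the second biological replicate alone were examined in a ChIP-seq map (chromatin immunoprecipitation followed by sequencing) of the soybean protein GLYMA.13G153200, called ABI5 in the names of the deposited peaks. A region belonged to this set when both antibodies gave a peak there in replicate 2 and neither did in replicate 1. Peaks of different libraries were joined when they overlapped by at least 50% of the shorter peak. By this rule 5336 of the 39947 joined regions (13.4%) were replicate 2-only regions. They were 21.6% of the 24732 regions with a peak in both replicate 2 libraries.

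The embryos came from Glycine max cultivar Williams 82 at mid-maturation, from seeds of 200 to 250 mg. All libraries shared this genotype, tissue and stage, and the labels name no treatment that differed between them. The 2 ChIP libraries of replicate 2 (antibody 1 and antibody 2) are set against the 2 of replicate 1 (antibody 1 and antibody 2). The other 2 of the 6 samples are input, chromatin that was not precipitated. Peptides spanning residues 103 to 117 and 275 to 289 of the protein were used to raise the antibodies, and the labels number them 1 and 2 without saying which peptide each stands for. The labels call the replicates biological and do not say whether a replicate number stands for 1 chromatin preparation, so both libraries of replicate 2 may share their source.

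ABI5, short for ABSCISIC ACID INSENSITIVE 5, is a basic leucine zipper (bZIP) transcription factor. In Arabidopsis it acts in abscisic acid signalling in seeds. There it binds abscisic acid-responsive elements, short DNA motifs with an ACGT core, in promoters of genes for late embryogenesis abundant proteins. Mid-maturation is the stage at which cotyledons of a legume embryo fill with storage protein and oil. Which genes, promoters or motifs lie at the regions was not analysed here, because the sources used here give no genome build for the coordinates.

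The lists held 27768 peaks for antibody 1 and 36189 for antibody 2 in replicate 2, against 12047 and 23296 in replicate 1. Whether calls in replicate 2 alone come from this difference in list length was not tested. The replicate 2-only regions took 5337 peaks (19.2%) of the antibody 1 list and 5338 (14.8%) of the antibody 2 list of replicate 2. The reverse set, called with both antibodies in replicate 1 alone, held 48 regions (0.12%). These are 0.408% of the 11771 regions with a peak in both replicate 1 libraries. When all lists were shortened to the 12047 most significant peaks by −log10 q (the significance adjusted over the list), 664 regions were called in replicate 2 only and 813 in replicate 1 only. This cut is unequal in significance: the lowest −log10 q kept was 18.8 with antibody 1 and 22.2 with antibody 2 in replicate 2, against 2.09 and 15.6 in replicate 1. A replicate 2 peak below its own limit leaves a replicate 1 call unmatched, which adds to the replicate 1-only count by construction. Of those 664 regions, 92 were among the 5336. The other 572 had a peak with antibody 2 in the full replicate 1 list that ranked below its limit.

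The count rested most on antibody 2 in replicate 1 and antibody 1 in replicate 2. Without the antibody 2 library of replicate 1, 13195 regions met the rule. Without the antibody 1 library of replicate 2, 14342 did. Leaving out antibody 1 of replicate 1 gave 5419, so few regions were kept out of the set by that library alone. Leaving out a library loosens the rule, so a higher count follows by construction. The regions were chosen by their calls, so their peak strength is given here as a description. A missing call sets no value for replicate 1, since the lists hold called peaks alone.

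The replicate 2-only regions were mostly weak sites. Fold enrichment is the peak caller's ratio of ChIP signal to local background, read at the summit, where the signal of a peak is highest. Among the 5336 regions it ran from 2.11 to 54.4 with antibody 1 in replicate 2, with a median of 4.57. With antibody 2 it ran from 2.39 to 39.5, with a median of 4.88. The middle 50% lay between 3.99 and 5.35 with antibody 1 and between 4.16 and 5.72 with antibody 2. The 11511 regions called in all 4 libraries had medians of 8.70 and 9.16 in the same libraries, and 5.46 and 7.41 in those of replicate 1. The 7801 regions called in all libraries but antibody 1 of replicate 1 had medians of 5.33 and 5.86 in replicate 2. Low strength was thus not particular to the replicate 2-only regions. Of the replicate 2-only regions, 320 (6.00%) had a fold enrichment of at least 6 with both antibodies, against 8803 (76.5%) of the regions of all 4 libraries. At 10 or more with both antibodies there were 2 replicate 2-only regions, against 3852 regions of all 4 libraries.

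**Figure D1:**
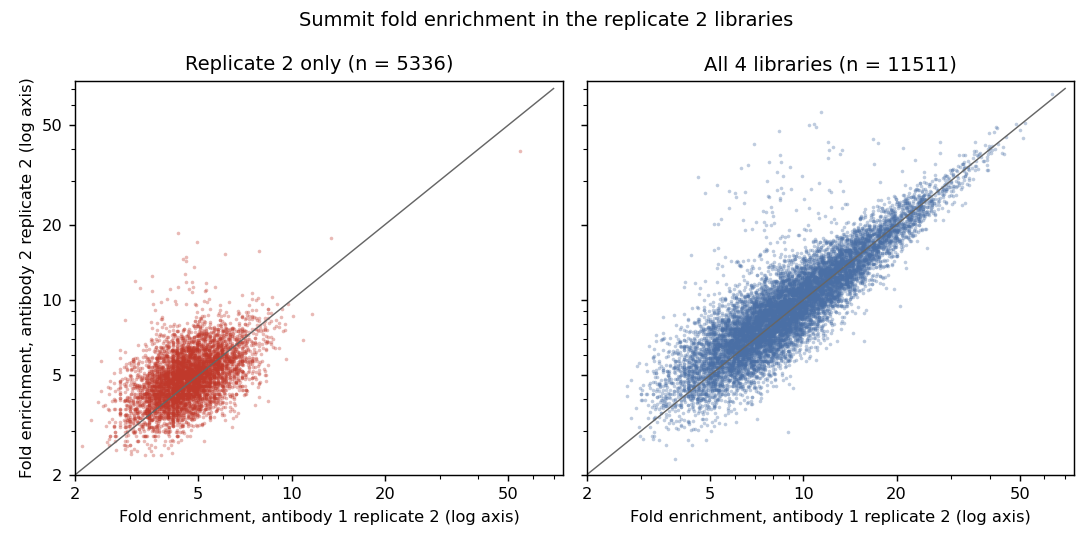
Fold enrichment at the summit with antibody 1 (x axis) and antibody 2 (y axis) in replicate 2, both on log axes, with 1 point per region and a line at equal values. The left panel shows the 5336 replicate 2-only regions, which crowd around medians of 4.57 and 4.88 except for a point at 54.4 and 39.5, and the right panel shows the 11511 regions of all 4 libraries.

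Significance and fragment numbers, which are not independent of fold enrichment, ran the same way. The median −log10 q was 9.76 with antibody 1 and 10.6 with antibody 2, against 34.9 and 36.3 at the regions of all 4 libraries. Summit fragment numbers, worked back from fold enrichment and −log10 p, had a median of 29 with either antibody, and the regions of all 4 libraries had 59 with either antibody. For a single region, a count of 29 has a 95% exact Poisson interval of 19.4 to 41.6 and a count of 59 one of 44.9 to 76.1. The expected background at the summit lay closer together. Its median was 5.21 fragments with antibody 1 and 4.95 with antibody 2, against 5.78 and 5.43 at the regions of all 4 libraries. The weak regions were not all marginal calls, but fewer passed stricter limits than regions of all 4 libraries. A −log10 q of at least 5 with both antibodies was found at 4840 (90.7%), against 11476 (99.7%) of the regions of all 4 libraries. At least 10 was found at 1864 (34.9%) against 10889 (94.6%), and at least 20 at 118 (2.21%) against 8400 (73.0%).

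The share of replicate 2-only regions fell with strength. Among the regions with a peak in both replicate 2 libraries, ordered by fold enrichment with antibody 1, 49.6% of the weakest decile were replicate 2-only (95% exact binomial interval 47.6 to 51.6). In the fifth decile it was 23.1% (21.4 to 24.8), in the eighth 2.43% (1.86 to 3.11) and in the strongest 0.0808% (0.00979 to 0.292), which is 2 of 2474 regions. Ordered by fold enrichment with antibody 2, it was 53.1% in the weakest decile (51.1 to 55.04) and 0.364% in the strongest (0.166 to 0.689), which is 9 of 2474. The same calls decide both measures in part, so this gradient is a description. Weak sites were also called in replicate 1 in many cases. Of the 2473 regions of the weakest decile with antibody 1, 238 (9.62%) had a peak in all 4 libraries and 1009 had a peak in 1 of the replicate 1 libraries.

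**Figure D2:**
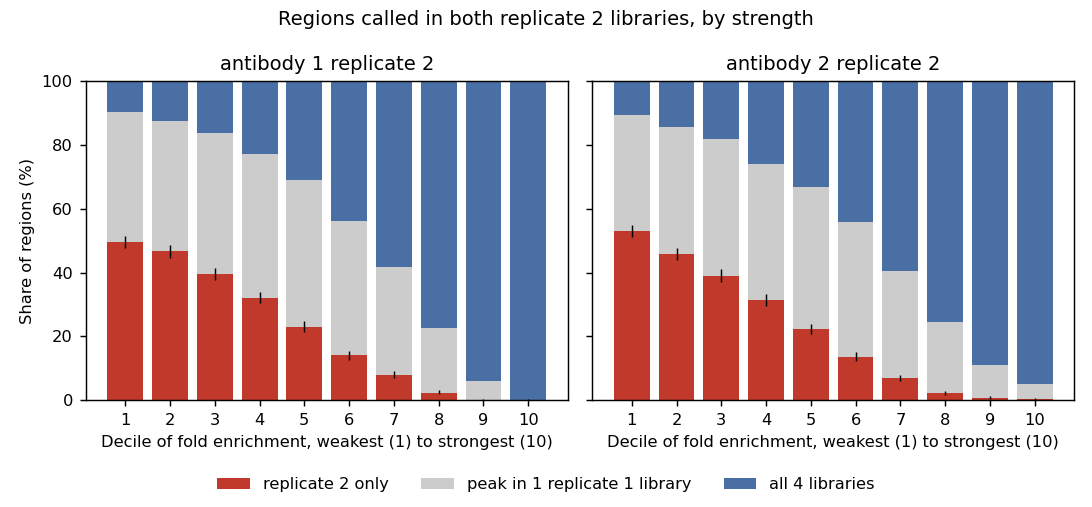
Regions called in both replicate 2 libraries, in deciles of fold enrichment from weakest to strongest (x axis), with the share in percent (y axis) called in replicate 2 only, with 1 replicate 1 peak list besides, and in all 4 libraries; error bars are 95% exact binomial intervals of the replicate 2-only share. That share is 49.6% in the weakest decile with antibody 1 and 53.1% with antibody 2, and below 0.4% in the strongest.

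The strongest replicate 2-only region stood far apart from all others of the set. It lay at chr13:15513790-15514641 (coordinates as deposited) and was 852 bp wide. Its fold enrichment in replicate 2 was 54.4 with antibody 1 and 39.5 with antibody 2. Within the antibody 1 list of replicate 2 it ranked 1 of all 27768 peaks by −log10 q, at 547, and 2 by fold enrichment. In the antibody 2 list it ranked 16 by −log10 q, at 351, and 41 by fold enrichment. The summit held 402 fragments with antibody 1 (95% exact Poisson interval 364 to 443) over an expected 6.40, and 286 with antibody 2 (254 to 321) over an expected 6.26. The 2 summits lay 50 bp apart.

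The replicate 1 peaks nearest to that chromosome 13 region lay 32584 bp away with antibody 1 and 32580 bp away with antibody 2. They belonged to a region called in all 4 libraries that began 32559 bp downstream, with fold enrichments of 14.6 and 12.6 with antibodies 1 and 2 in replicate 2, against 8.17 and 10.8 in replicate 1. A region 57324 bp upstream was also called in all 4 libraries, so the replicate 1 lists held calls on both sides of the gap. The other regions with a fold enrichment of at least 39.5 with both antibodies in replicate 2 numbered 17, and all 17 had peaks in all 4 libraries. Whether the signal at this region reflects binding of the protein was not tested, and its fold enrichment and fragment numbers are given as the lists hold them.

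The second strongest lay at chr15:7659661-7661673 and was 2013 bp wide, the widest of the 5336. Antibody 1 gave 1 peak of 2010 bp there, with a fold enrichment of 13.4 and its summit at 7661357. Antibody 2 gave 2 peaks, of 1183 bp and 542 bp, with fold enrichments of 17.6 and 13.6 and summits at 7660067 and 7661411. The region held a broad signal with more than 1 summit, and in this it was rare, since 5333 of the 5336 regions held exactly 1 peak of each antibody. The nearest replicate 1 peak was 31910 bp away with antibody 1 and 16382 bp away with antibody 2. Of 1830 other regions with at least 13.4 with both antibodies in replicate 2, 1829 had peaks in all 4 libraries, and the exception was the chromosome 13 region.

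From the third region on, strength was graded. The third, at chr1:1875749-1876100, had fold enrichments of 9.74 with antibody 1 and 9.62 with antibody 2 in replicate 2. The fourth, at chr2:28041479-28041795, had 9.33 and 9.22, and its nearest antibody 1 peak in replicate 1 was 566940 bp away. The fifth, at chr4:8329717-8330058, had 8.95 and 9.62. The other 10 of the 15 strongest lay at chr15:3005555-3005942, chr8:36221527-36221853, chr8:4139532-4139879, chr8:13802423-13802713, chr7:42562071-42562364, chr5:6258956-6259268, chr5:36773593-36773915, chr9:18460014-18460360, chr17:34110-34400, and chr6:19238848-19239137. Their fold enrichment ran from 8.37 to 11.6 with antibody 1 and from 8.27 to 10.3 with antibody 2. All 13 from the third on were compact, 290 to 388 bp wide, with summits of the antibodies at most 49 bp apart. Ranked by −log10 q, 11 of the 15 were the same regions.

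Replicate 1 had its own isolated strong calls. Of the 48 regions called in replicate 1 only, that at chr7:44132356-44133698 had fold enrichments of 50.3 with antibody 1 and 25.4 with antibody 2. Its −log10 q of 594 was the highest of the antibody 1 list of replicate 1, as was its fold enrichment. A region at chr8:13066597-13067798 had 24.2 and 26.1. Both were singled out after their values were seen, and whether they reflect binding was not tested either. In either replicate the peak of highest −log10 q with antibody 1 had no peak in the libraries of the other replicate. The next by rank had 4.99 and 6.89, and the medians over the 48 were 4.05 and 4.23.

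Within replicate 2 the summits of the antibodies lay close together, which the joining rule sets in part. Peaks had to overlap by at least 50% of the shorter one, so a short distance is no independent sign of agreement. The median distance between their summits was 28 bp over the 5336 regions, and 3968 (74.4%, 95% exact binomial interval 73.2 to 75.5) lay within 50 bp. The regions of all 4 libraries had a median of 19 bp, with 87.1% (86.4 to 87.7) within 50 bp. The wider spread went with strength. Among regions with a fold enrichment from 4 to below 6 with both antibodies, the median distance was 26 bp in 2192 replicate 2-only regions and 25 bp in 933 regions of all 4 libraries. Within 50 bp lay 77.1% and 78.0% of them. Peaks were narrower in the same band, with median widths of 247 bp and 249 bp with antibodies 1 and 2 in replicate 2-only regions, against 298 bp and 308 bp in regions of all 4 libraries. Wider peaks have more room to overlap, so width is not independent of how regions were joined.

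**Figure D3:**
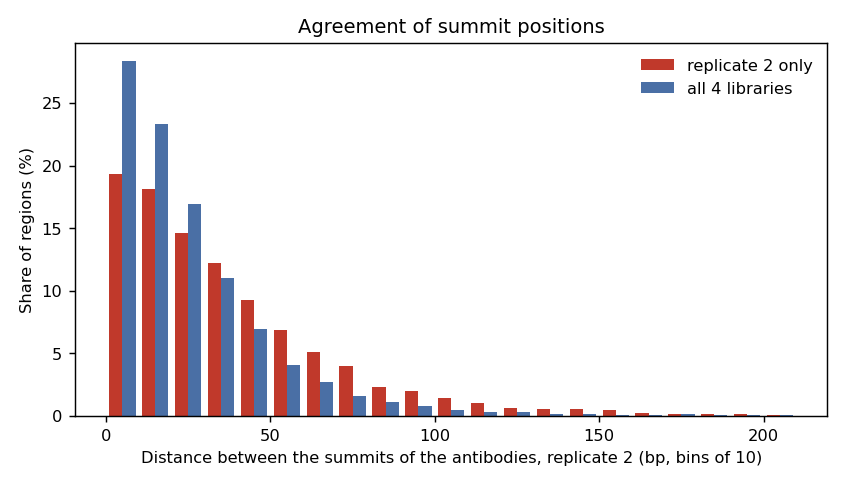
Distance between the antibody 1 and antibody 2 summits of replicate 2 in bins of 10 bp up to 210 bp (x axis) and the share of each set of regions in percent (y axis). Replicate 2-only regions have a median of 28 bp and regions of all 4 libraries a median of 19 bp.

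Fold enrichment differed little between the antibodies at these sites, each of which had to have a called peak with both. Sites called with 1 antibody alone in replicate 2 were left out by the rule, so the small differences rest in part on the selection. Fold enrichment was higher with antibody 1 at 2223 of the 5336 regions (41.7%), and the median log2 ratio of antibody 1 over antibody 2 was -0.07. The log2 ratio of 80% of the regions lay between -0.51 and 0.34. Differences over 2-fold were found at 49 regions (0.918%), of which 3 were higher with antibody 1 and 46 with antibody 2. At the 46, the median fold enrichment was 3.92 with antibody 1 and 10.4 with antibody 2, so their strength rested on antibody 2. The region of the most negative ratio, chr7:4855594-4856156, had 4.31 with antibody 1 and 18.6 with antibody 2, a log2 ratio of -2.11. Next was chr18:1612964-1613387 with 3.13 and 11.9. These were named after their values were seen. Summits of the antibodies lay within 50 bp of each other at 41.3% of the 46, against 74.4% of all 5336.

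The regions of all 4 libraries had a median log2 ratio of -0.04, with differences over 2-fold at 133 (1.16%), of which 5 were higher with antibody 1 and 128 with antibody 2. The lean towards antibody 2 was found in both sets. It was larger in the 7801 regions called in all libraries but antibody 1 of replicate 1, with a median log2 ratio of -0.12. Differences over 2-fold were found at 252 of these (3.23%), of which 8 were higher with antibody 1 and 244 with antibody 2. Spearman's rho of fold enrichment between the antibodies was 0.488 across the 5336 regions and 0.865 across the 11511. These coefficients are across regions of the same pair of libraries and depend on the range covered. The SD of log2 fold enrichment with antibody 1 was 0.33 in replicate 2-only regions and 0.66 in regions of all 4 libraries. In the band from 4 to below 6 rho was 0.185 and 0.249.

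Replicate 2-only regions, like the shared sites, were densest towards the chromosome ends. Of the 5308 on the 20 chromosomes, 4101 fell in the outer 25% of length at either end. This is 77.3% (95% exact binomial interval 76.1 to 78.4), against 78.1% (77.4 to 78.9) of the regions of all 4 libraries. The other 28 lay on scaffolds. In steps of 10% of chromosome length their density was 10.6 per Mb in the first, 1.49 in the sixth and 10.7 in the last. More than 50% lay in the outer parts on 19 of the 20 chromosomes, from 91.0% on chromosome 4 down to 45.1% on chromosome 13, the exception. The regions of all 4 libraries had 90.8% and 43.6% on these chromosomes. The outer share was lower in replicate 2-only regions on 12 of 20 chromosomes, and no test was run, since regions of the same libraries are not replicates.

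**Figure D4:**
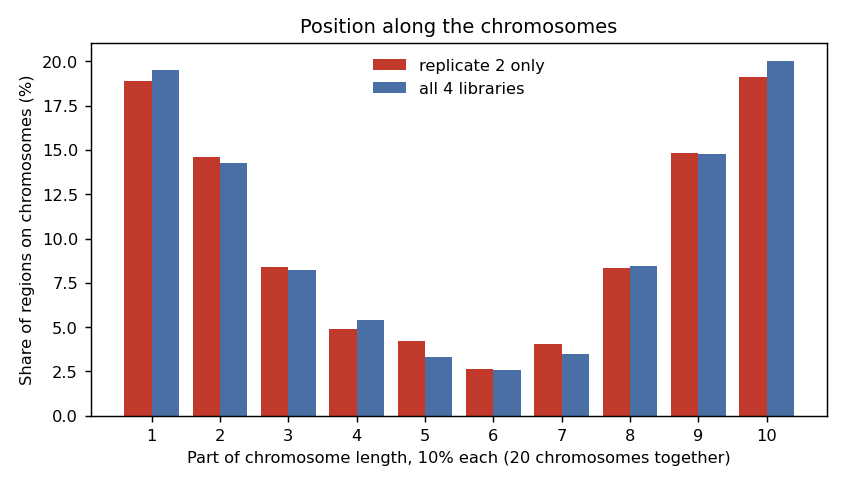
Share of regions (y axis, percent of each set on the 20 chromosomes) by 10% steps of chromosome length (x axis), for replicate 2-only regions and regions of all 4 libraries. Both sets are densest at the ends and sparsest in the sixth step, which holds 2.66% of the replicate 2-only regions and 2.60% of the others.

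Chromosome 13 held the most replicate 2-only regions, 401, and the most per Mb, 8.75 (95% exact Poisson interval 7.92 to 9.65). It was also highest for the regions of all 4 libraries, with 845 or 18.4 per Mb. The replicate 2-only regions were 22.0% of its regions called in both replicate 2 libraries, near the 21.6% of the whole genome. Chromosome 14 had the fewest per Mb, 3.99 (3.45 to 4.59). The first 10 Mb of chromosome 13 held 16 replicate 2-only regions, a density of 1.6 per Mb, and 385 lay beyond at 10.7 per Mb. The same 10 Mb held 14 of the 845 regions of all 4 libraries, so both sets were sparse there. As a share of the regions called in both replicate 2 libraries, they made up between 19.5% on chromosome 14 (17.1 to 22.1) and 25.4% on chromosome 18 (22.9 to 28.0). Across 956 stretches of 1 Mb, Spearman's rho between the number of replicate 2-only regions and that of regions of all 4 libraries was 0.853, as a description of counts from the same libraries. The most in a stretch was 25, at 10 to 11 Mb on chromosome 8, which also held 36 regions of all 4 libraries. In 39 stretches, replicate 2-only regions occurred with no region of all 4 libraries, 65 regions in all.

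Few of the absences in replicate 1 were near misses of the overlap rule. In 17 of the 5336 regions (0.319%, 95% exact binomial interval 0.186 to 0.510) a replicate 1 peak overlapped the region by less than the rule asks, each time with antibody 2. The closest to the limit, at chr14:6921554-6921807, overlapped by 49.8% of the shorter peak, with fold enrichments of 3.72 and 4.47 with antibodies 1 and 2 in replicate 2. Just past the limit, at chr3:40779247-40779900, a region counted as called in replicate 1 overlapped by 52.3%, with 5.01 and 6.13. A replicate 1 peak lay within 500 bp of 311 regions (5.83%) and within 2000 bp of 1185 (22.2%). The median gap to the nearest replicate 1 peak was 6945 bp.

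Some replicate 2-only regions lay close to a shared site. The summit was within 2000 bp of that of a region of all 4 libraries for 512 of 5308 replicate 2-only regions (9.65%, 95% exact binomial interval 8.86 to 10.5). Regions of all 4 libraries lay that close to another such region in 11.4% of cases (10.8 to 12.0), and regions missed by antibody 1 of replicate 1 alone in 10.5% (9.87 to 11.2). Median distances were 15840 bp, 14382 bp and 14580 bp in the same order. Within 1000 bp the shares were 3.26%, 3.51% and 3.91%.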

How the data were processed

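The authors used Bowtie 0.12.7 for mapping and MACS3 for peak calling, per the submitters' processing notes, and the deposited peak names give a q threshold of 0.01 and calls per library. The build, the control of each library and the caller options were not given in the sources used here. The deposited fold enrichment is a ratio at the summit, and −log10 p and −log10 q (p-value, q-value) are as the authors' peak caller gave them. The deposited score, 10 times −log10 q, was not used. Starts were converted to count from 1, and each chromosome was taken to end with its last peak.

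Python 3.11.15, pandas 2.3.3 and scipy 1.17.1 joined peaks overlapping by at least 50% of the shorter one. Where a region held several peaks of a list, the strongest by fold enrichment gave its value. Positions along chromosomes and distances between the summits of regions used antibody 2 summits of replicate 2. Gaps to replicate 1 peaks, and the distances to regions beside the strongest ones, were taken between edges and are not comparable with summit distances. Fragments were recovered as the whole pileup solving fold enrichment = (pileup + 1)/(background + 1) and the Poisson tail (tolerance 0.02), which gave whole numbers for 100% of the regions used. Joining and recovery were tested on simulated data. Library totals and the input libraries were not analysed here. Intervals (95%) cover counting error only, as PCR copies are not independent molecules. No p-value was computed. The calls chose the regions, and 2 libraries against 2 cannot go below an exact two-sided p of 0.333. The named regions are the 15 with the best value of the worse of their percentiles of fold enrichment in the replicate 2 lists. Regions and measures were chosen with earlier results of these data known. Alternatives were other overlap rules, stricter q, lists of equal length and each library left out.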

Additional observations from a re-analysis of the deposited data

How the results depend on the processing

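Of 67 alternative values, 37 stayed within 1.5 times (counts) or inside the 95% interval of the reported value and 30 did not; these values are not signed differences. No paired analysis was possible because the results are counts, shares and medians of called regions that come from no test, so there is no fit to which a replicate block could be added. The motif comparison was not run, as no genome was used. The count was lowest with lists of equal length, a cut that is unequal in significance. The cut adds to the replicate 1-only count by construction. It also adds to the replicate 2-only count, where 572 regions had an antibody 2 peak of replicate 1 below its limit. With this cut there were 664 regions, of which 92 were among the 5336. They were fewer than the 813 called in replicate 1 only, whereas in the full lists it was 5336 and 48. The 664 had median fold enrichments of 7.46 and 8.24 with antibodies 1 and 2, 74.2% in the outer parts, a median summit distance of 18 bp and 5.76% within 2000 bp of a region of all 4 libraries. At −log10 q of at least 5 in every list 5177 regions met the rule, with median fold enrichments of 4.66 and 4.96. At 10 in every list 3797 did, with 5.60 and 5.89, 23 bp and 7.53%. A stricter limit keeps stronger peaks by construction. It also removes weak replicate 1 peaks, so these regions need not be among the 5336, and fewer regions can count as shared. At 10 in the replicate 2 lists alone, 1864 regions remained by the rule. Summits within 100 bp as the link gave 4.92 for antibody 2 and 26 bp. Other distances or limits gave 38.0% in the outer 10%, and 3.26% within 1000 bp and 22.1% within 5000 bp. By −log10 q, the replicate 2-only share of the weakest decile was 58.7% with antibody 1 and 60.1% with antibody 2. Leaving out 1 library gave 5419 to 14342 regions, medians of 4.42 to 4.97 with antibody 1 and 4.47 to 5.37 with antibody 2, 77.1% to 77.5% in the outer parts, 26 to 28 bp, and 10.3% to 16.03% within 2000 bp, the last without antibody 1 replicate 1, where more regions count as shared. The median region rested on 29 summit fragments in each replicate 2 library; the depth of replicate 1 at these positions was not analysed here.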

Other observations

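In 98 of the 956 stretches of 1 Mb the replicate 2-only regions outnumbered those of all 4 libraries, and 39 of these stretches held no region of all 4 libraries. At 8 to 9 Mb on chromosome 16 and at 43 to 44 Mb on chromosome 15, they were 8 of the 13 regions called in both replicate 2 libraries, with 2 regions of all 4 libraries in each. At 36 to 37 Mb on chromosome 1 they were 0 of 19, with 12 regions of all 4 libraries. These stretches were chosen after their values were seen, among those with at least 10 regions of both replicate 2 libraries.

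Some replicate 2-only regions also had neighbours of their own kind. Another such region had its summit within 2000 bp for 275 of 5308 (5.18%, 95% exact binomial interval 4.60 to 5.81), and the median distance to the nearest was 35479 bp. Among the 11449 regions of all 4 libraries on the chromosomes, 11.4% lay that close to another of their set, with a median of 14382 bp. The sets differ in number, which bears on the distance to a neighbour, and no comparison at equal numbers was run. These values are therefore not read as a trait of either set. Along chromosome 15, a replicate 2-only region with fold enrichments of 4.67 and 4.37 with antibodies 1 and 2 ended 1794 bp before the broad region at 7659661 to 7661673.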
